A study of Mus musculus with 31 samples.

Results

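The genes described here are 10 fatty acid elongases and desaturases of the mouse, Elovl1, Elovl3, Elovl5, Elovl6, Elovl7, Scd1, Scd2, Fads1, Fads2 and Fads3, among 55379 genes counted in the mammary gland on day 10 of lactation. They were taken by gene symbol, to ask whether relatives of Elovl6 rose with it in fluoxetine-treated dams. Elovl6 was selected on its counts in fluoxetine against saline dams, and that difference is given as a description, with no p-value. The other 9 were included for their family name, and 9 of the 10 genes, all except Elovl3, had enough counts to be fitted.

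Elongases of the Elovl family carry out the first and rate-setting step of the cycle that adds carbons to a fatty acyl chain in the endoplasmic reticulum. Desaturases place double bonds in the chain, the Scd enzymes in saturated acyl chains and the Fads enzymes nearer to the carboxyl end of polyunsaturated ones. In the lactating gland the secretory epithelium makes much of its milk fat from newly synthesized short and medium chains, while the adipocytes of the surrounding fat pad store longer ones.

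C57BL/6 dams ate a breeder diet with 4 mg/kg folic acid or a diet supplemented to 24 mg/kg folic acid (FA) from 2 weeks before mating. From embryonic day 13 to lactation day 10 they were injected daily into the peritoneum with saline or with 20 mg/kg fluoxetine hydrochloride, a selective serotonin reuptake inhibitor. By the labels there were 8 breeder + saline, 7 breeder + fluoxetine, 8 FA + saline and 8 FA + fluoxetine dams, and each of the 31 dams gave 1 poly(A) RNA library of whole mammary gland. All dams were pregnant and lactating, so that no group shows the gland outside lactation.

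The libraries held between 15412542 and 36000439 counts, with a median of 22299952. The caseins and whey proteins of the secretory epithelium dominated them, and the 20 most abundant genes took 60.5% to 81.0% of the counts in 30 libraries. The library of FA + fluoxetine dam 3 stood apart, with 39.3%. In that dam the summed secretory epithelium markers (10 of 10 detected) were at 59010 CPM (counts scaled to a common library size, with TMM factors) against a median of 726719 over all dams, and the leukocyte markers were at 41.9 CPM, the highest of the 31 dams. For some values of the members the value without that dam is given too, but not for every value that it moved. In whole tissue, fewer cells of a type and less RNA per cell cannot be told apart.

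The 250 bases before the annotated start are printed for Elovl6, the gene chosen for its difference with the drug, and for Scd1, the most abundant member. They are also printed for Fads1 and Fads2, neighbours on chromosome 19 whose expression varied most closely together. They were read 5′ to 3′ from GRCm39, on the plus strand for Elovl6 (chr3:129325754-129326003) and Fads1 (chr19:10159917-10160166) and on the minus strand for Fads2 (chr19:10079204-10079453) and Scd1 (chr19:44396341-44396590). Capitals mark matches, on either strand, to CCAAT (the CCAAT box) or GGGCGG (the GC box).
Elovl6: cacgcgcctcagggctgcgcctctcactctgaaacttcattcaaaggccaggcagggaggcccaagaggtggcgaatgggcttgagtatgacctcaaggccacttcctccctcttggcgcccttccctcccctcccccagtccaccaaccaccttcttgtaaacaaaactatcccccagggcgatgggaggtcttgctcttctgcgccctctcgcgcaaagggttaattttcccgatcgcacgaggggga
Fads1: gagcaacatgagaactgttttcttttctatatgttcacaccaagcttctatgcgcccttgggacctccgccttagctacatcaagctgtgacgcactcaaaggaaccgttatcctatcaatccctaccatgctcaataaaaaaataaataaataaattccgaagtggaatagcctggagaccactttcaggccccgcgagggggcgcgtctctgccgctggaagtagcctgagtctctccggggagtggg
Fads2: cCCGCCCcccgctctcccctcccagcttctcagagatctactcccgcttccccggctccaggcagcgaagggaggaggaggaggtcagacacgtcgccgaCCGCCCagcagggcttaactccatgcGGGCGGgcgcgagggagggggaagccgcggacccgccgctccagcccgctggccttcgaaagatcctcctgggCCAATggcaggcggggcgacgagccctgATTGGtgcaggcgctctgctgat
Scd1: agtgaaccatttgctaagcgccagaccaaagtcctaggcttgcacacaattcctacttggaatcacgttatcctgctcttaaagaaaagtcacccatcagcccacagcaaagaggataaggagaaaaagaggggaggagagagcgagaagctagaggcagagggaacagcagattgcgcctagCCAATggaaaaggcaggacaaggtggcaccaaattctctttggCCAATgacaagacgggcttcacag

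CCAAT was found in the windows of 4 of the 10 genes (Elovl3, Scd1, Fads2 and Fads3) and in 34.77% of 14326 windows of the same length. GGGCGG was found in 4 of 10 (Elovl3, Elovl7, Fads2 and Fads3) against 46.09%. No member's window held the E-box CACGTG, found in 7.308% of all windows. None held a part of the sterol regulatory element, TCACCCC, found in 4.607%, nor the TATA box, TATAAA, found in 8.307%. In the printed Scd1 window CCAAT began 67 and 24 bases before the start, and in that of Fads2 51 bases before it, with the reversed form at 23 bases. The windows of Elovl6 and Fads1 held none of these motifs, which says nothing about any factor.

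Elovl6, which lengthens palmitate to stearate, lies on chromosome 3 from 129326004 to 129432144 of GRCm39 (ENSMUSG00000041220), and 34 of its exon bases overlap the opposite-strand gene Gm35986, which was at 0.187 CPM. In breeder + saline dams it ranged from 25.7 to 43.3 CPM with a median of 32.8, and in FA + saline dams from 26.0 to 51.9 CPM with a median of 35.9. In breeder + fluoxetine dams it ranged from 35.5 to 130.0 CPM with a median of 57.1, and in FA + fluoxetine dams from 35.7 to 110.9 CPM with a median of 50.6. All 15 fluoxetine dams lay above the median of the 16 saline dams (35.3 CPM), 7 of them above the highest saline dam, and the ranges overlapped.

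The coefficient of variation of Elovl6 was 20.7% over the saline dams and 43.8% over the fluoxetine dams. It was also larger over the fluoxetine dams for Elovl1 (17.7% and 30.3%), Elovl5 (29.7% and 40.9%), Elovl7 (17.5% and 32.8%), Scd1 (35.8% and 51.3%), Scd2 (53.2% and 61.9%), Fads1 (19.8% and 30.4%) and Fads2 (27.0% and 36.5%), and the difference in spread was not tested. These values include FA + fluoxetine dam 3, the lowest of all dams for Elovl1, Elovl5, Elovl7, Fads1 and Fads2. The spread without that dam was not computed, so no wider spread with fluoxetine is read for these genes. With fluoxetine on the breeder diet, Elovl6 reached 130.0, 82.5, 71.7 and 57.1 CPM in dams 9, 2, 8 and 13 while dam 5 had 35.5 CPM. On the FA diet dams 6, 3 and 1 reached 110.9, 96.2 and 86.6 CPM while the other 5 dams had between 35.7 and 50.7 CPM. High Elovl6 was thus carried by some dams of both diets, and the remaining fluoxetine dams sat within the saline range.

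Averaged over diets, Elovl6 was 0.90 higher with fluoxetine on the log2 scale (SE 0.16, 15 against 16 dams), and 0.84 higher without FA + fluoxetine dam 3. It was the 1 member past a false discovery rate of 10%, where 0.0209% of the 14362 genes tested were called and 0.00696% were called higher. That count follows from how the gene was chosen. It was 0 without breeder + fluoxetine dam 8, whose omission left the difference at 0.89. It was also 0 with the number in the sample title as a block, where the difference was 0.69. Neither comparison involving diet passed the test for Elovl6: the FA effect was 0.05 (SE 0.16, edgeR quasi-likelihood test, adjusted p = 0.993) and the interaction of drug and diet was -0.13 (SE 0.33, adjusted p = 0.983). Without FA + fluoxetine dam 3 the FA effect was 0.0003 and the interaction -0.24.

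**Figure D1:**
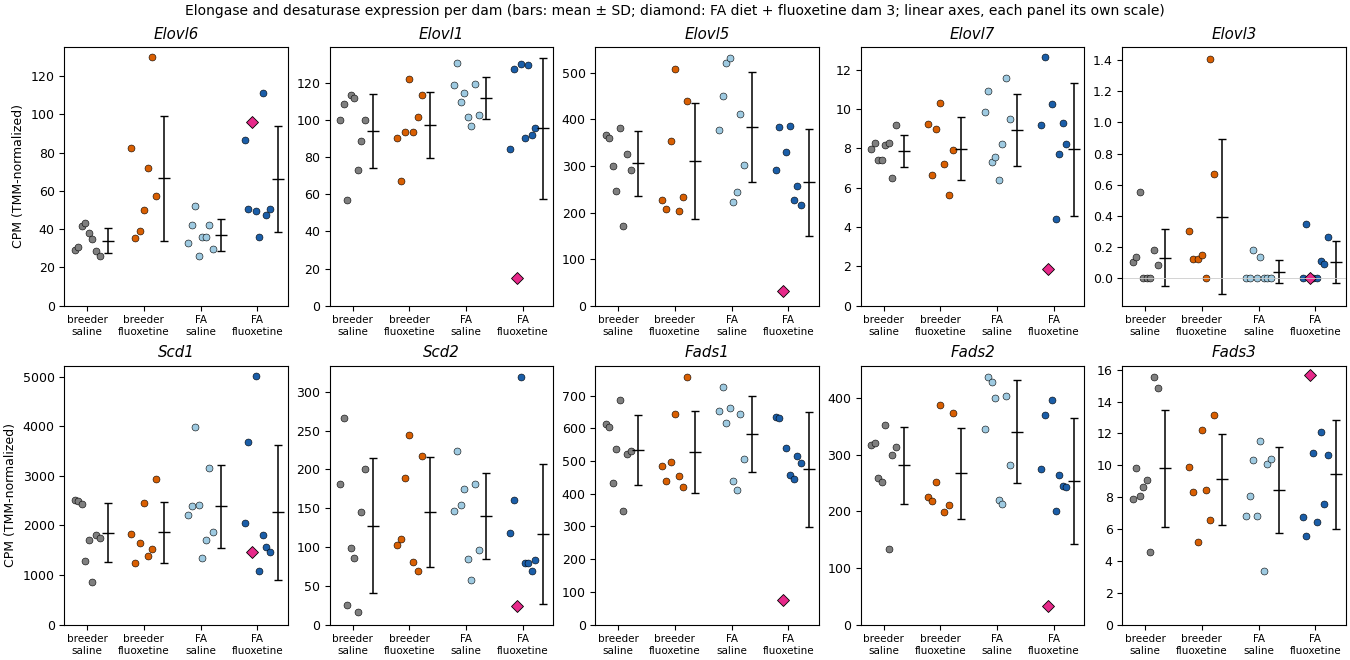
TMM-scaled CPM of each of the 10 genes in each of the 31 dams, by diet and drug, on linear axes with a separate scale per gene; bars give the mean and SD of each group and the diamond is FA + fluoxetine dam 3. Elovl6 reached 130.0 CPM in fluoxetine dams against at most 51.9 CPM in saline dams, while the groups of the other fitted genes overlapped over most of their ranges.

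The other elongases did not pass the test with fluoxetine. Elovl1, which lengthens saturated and monounsaturated very long chains, was 96.4 ± 29.2 CPM (SD, n = 15) with fluoxetine and 102.9 ± 18.3 CPM (n = 16) with saline. Its log2 difference was -0.09 (95% interval -0.42 to 0.24, edgeR adjusted p = 0.893), and -0.02 without FA + fluoxetine dam 3, which had 14.8 CPM. None of the 15 fluoxetine dams lay above the highest saline dam, at 130.8 CPM.

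Elovl5, the elongase of polyunsaturated chains, was 286.4 ± 117.2 CPM with fluoxetine and 344.2 ± 102.2 CPM with saline. Group medians were 312.8 CPM in breeder + saline, 233.9 CPM in breeder + fluoxetine, 394.8 CPM in FA + saline and 274.2 CPM in FA + fluoxetine dams. The log2 difference was -0.25 (95% interval -0.68 to 0.17, edgeR adjusted p = 0.716), and the ranges overlapped widely. Without FA + fluoxetine dam 3, which had 30.9 CPM, it was -0.18.

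Elovl7, an elongase of saturated long chains, was low, at 8.0 ± 2.6 CPM with fluoxetine and 8.4 ± 1.5 CPM with saline. Its log2 difference was -0.07 (95% interval -0.39 to 0.24, edgeR adjusted p = 0.909), and -0.01 without FA + fluoxetine dam 3. Elovl3, an elongase known from brown fat and sebaceous glands, had 105 counts over all dams, in 17 of 31, and could not be fitted. Its highest level was 1.41 CPM, in breeder + fluoxetine dam 9, which also had the highest Elovl6. No direction is read from so few counts.

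The delta-9 desaturases did not pass the test with fluoxetine either. Scd1, which makes oleate from stearate, was the most abundant member, with 2078.6 ± 1065.8 CPM in fluoxetine and 2120.7 ± 758.6 CPM in saline dams. Its log2 difference was -0.03 (95% interval -0.44 to 0.37, edgeR adjusted p = 0.972), and -0.01 without FA + fluoxetine dam 3. FA + fluoxetine dam 4 had the highest Scd1, 5015.4 CPM, and also the highest Scd2, 318.7 CPM, with Elovl6 at 49.3 CPM.

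Scd2, the isoform known from brain and fat tissue, was the most variable of the fitted genes, from 16.7 CPM in breeder + saline dam 10 to 318.7 CPM. It was 129.7 ± 80.4 CPM with fluoxetine and 133.7 ± 71.1 CPM with saline, a log2 difference of -0.04 whose 95% interval ran from -0.72 to 0.64 (edgeR adjusted p = 0.981). That interval is wide enough to hold a difference of either sign. Scd1 to Scd4 are related neighbours on chromosome 19, and reads that could belong to more than one of them were not measured here.

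The Fads genes lie side by side on chromosome 19. Fads1, the delta-5 desaturase, was 499.9 ± 151.8 CPM with fluoxetine and 558.8 ± 110.4 CPM with saline (log2 difference -0.16, 95% interval -0.50 to 0.19, edgeR adjusted p = 0.795). The difference of Fads1 was -0.08 without FA + fluoxetine dam 3, at 74.1 CPM. Fads2, the delta-6 desaturase, was 259.4 ± 94.7 CPM and 310.8 ± 83.8 CPM (log2 difference -0.25, 95% interval -0.65 to 0.15, edgeR adjusted p = 0.693). Fads3, whose protein acts on sphingoid bases, was 9.3 ± 3.1 CPM and 9.1 ± 3.2 CPM (log2 difference 0.03, 95% interval -0.32 to 0.38, edgeR adjusted p = 0.972).

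Of the 9 genes fitted, 2 were thus higher and 7 lower with fluoxetine, with a median log2 difference of -0.07, against 53.5% higher and a median of 0.02 over all genes tested. Elovl6 apart, none reached an unadjusted p of 0.05, which 9.92% of all genes did. The upper ends of the 95% intervals of the other 8 lay between 0.15 and 0.64. Without FA + fluoxetine dam 3 the split was again 2 higher and 7 lower, with a median of -0.02, but Scd2 was then higher (0.03) and Fads3 lower (-0.05).

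**Figure D2:**
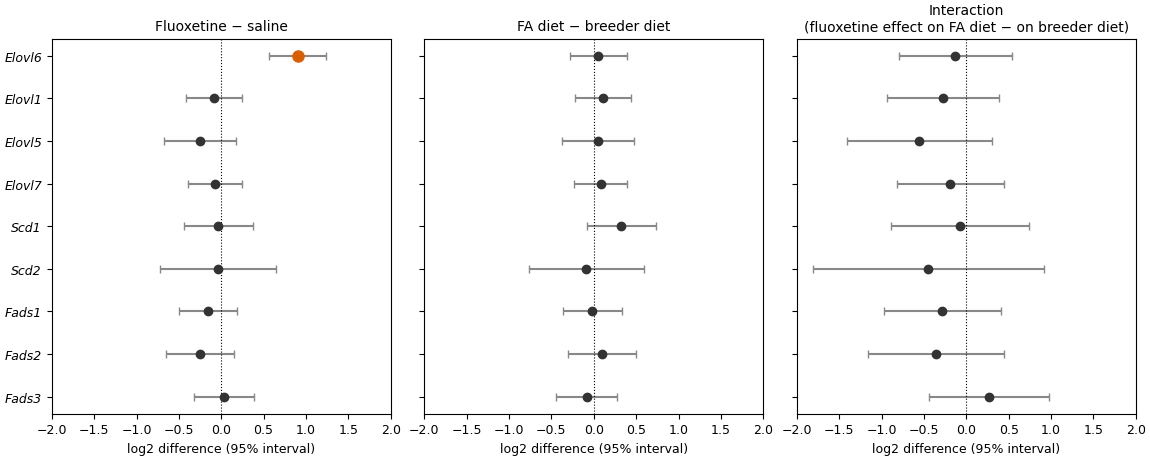
Log2 differences of the 9 fitted genes for fluoxetine against saline, FA against breeder diet, and their interaction; points are edgeR estimates and bars 95% intervals. Elovl6 stands at 0.90 for fluoxetine (coloured, since the gene was chosen for it), and its bar there is a description, not a test. The intervals of the other genes include 0 in all 3 panels, as do those of Elovl6 for FA and the interaction.

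FA supplementation moved no member past the threshold, nor any of the 14362 genes (0%, edgeR quasi-likelihood test; 5.08% had an unadjusted p under 0.05). The largest difference was that of Scd1, at 2326.7 ± 1095.5 CPM on the FA diet and 1858.8 ± 588.6 CPM on the breeder diet, a log2 difference of 0.32 (SE 0.20, adjusted p = 0.933). The others lay between -0.09 and 0.11, and 6 of the 9 were higher, with a median of 0.05 (53.9% of all genes were higher, with a median of 0.02). Without FA + fluoxetine dam 3, 7 of the 9 were higher, with a median of 0.13, and values other than that of Scd1 ran from -0.16 for Fads3 to 0.19 for Elovl1. For the interaction, 8 of 9 were below 0, with a median of -0.28, or -0.13 without FA + fluoxetine dam 3 (54% of all genes were above 0, with a median of 0.03). None was called by edgeR (0% of all genes, 3.84% with an unadjusted p under 0.05), with Elovl5 at -0.56 (SE 0.42, edgeR adjusted p = 0.977), Scd2 at -0.45 and Fads3, the only one above 0, at 0.27, or 0.11 without FA + fluoxetine dam 3.

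Compared per length, as RPKM (reads per merged exon length and library size), the members spanned a wide range of levels. Scd1 led with 291.5 ± 125.5 RPKM (SD, n = 31), above Fads1 at 94.7 ± 23.8, Elovl5 at 55.7 ± 19.7 and Fads2 at 43.8 ± 14.0 RPKM. Elovl1 and Scd2 followed at 18.4 ± 4.4 and 17.5 ± 9.9 RPKM and Elovl6 at 5.9 ± 3.0 RPKM. Fads3, Elovl7 and Elovl3 were lowest, at 2.03 ± 0.68, 1.43 ± 0.36 and 0.070 ± 0.126 RPKM. Neighbours whose mean ± SD overlapped were Fads1 and Elovl5, Elovl5 and Fads2, Elovl1 and Scd2, Scd2 and Elovl6, and Fads3 and Elovl7. Elovl6 is thus one of the less abundant members, and in saline dams alone it was at 4.18 RPKM.

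**Figure D3:**
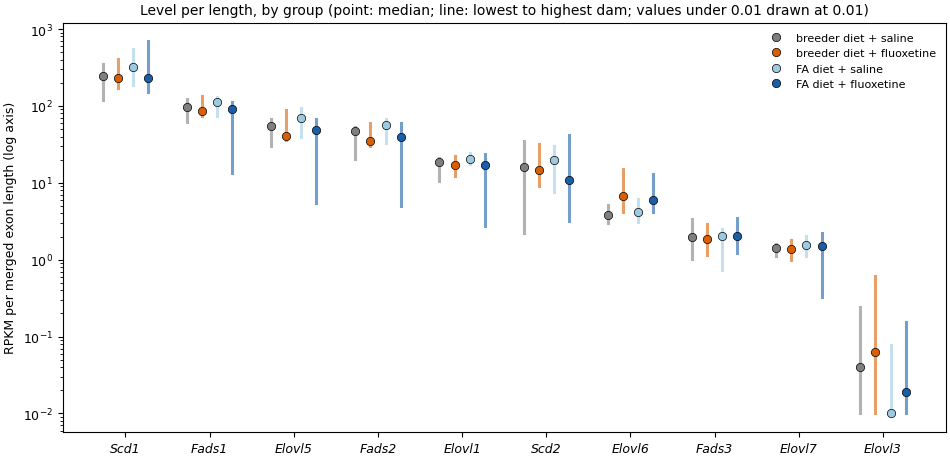
Level per merged exon length (RPKM, log axis) of the 10 genes in the 4 groups; points are medians and lines run from the lowest to the highest dam. Scd1 led at a mean of 291.5 RPKM and Elovl3 was lowest at 0.070 RPKM, with Elovl6 seventh in the order.

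Within groups most members varied together, and Elovl6 did not follow them. Over 45 pairs of genes, log2 CPM centred on group means was correlated across the 31 dams, with permutation of dams within groups and Benjamini-Hochberg adjustment, and 19 pairs passed 10%. Fads1 and Fads2 were closest (Pearson's r = 0.96, permutation p = 1e-05, Spearman's rho = 0.89, permutation p = 1e-05, the smallest the permutations can give). Elovl5 with Fads2 had r = 0.94 and rho = 0.86, and Elovl5 with Fads1 had r = 0.94 and rho = 0.83, each again with a permutation p of 1e-05. Without the 2 dams farthest from the median of the first gene r was 0.86, 0.81 and 0.77 for these pairs.

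Scd2 and Scd1 joined that set less closely. Scd2 with Fads2 had r = 0.75 and rho = 0.79, and Scd1 with Fads2 r = 0.62 and rho = 0.78, with adjusted permutation p of 7.5e-05 and 0.0029 for r. Elovl6 ranged from r = -0.36 to 0.24 with the other 9 genes. Its one pair past the threshold was with Scd2 (r = -0.36, permutation p = 0.0349, adjusted 0.0826; rho = -0.36, permutation p = 0.0498, adjusted 0.102), and r was -0.33 (adjusted permutation p = 0.167) without the 2 farthest dams, so that its passing rested on them. Leaving out FA + fluoxetine dam 3 alone gave r = -0.29 (adjusted permutation p = 0.163). Fads3 had no pair past the threshold over all dams.

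FA + fluoxetine dam 3 shaped part of this. As a percentage of the median of the other dams, it had 14.6% of Elovl1, 9.84% of Elovl5, 23.0% of Elovl7, 14.1% of Fads1, 11.6% of Fads2 and 21.0% of Scd2. It had 80.7% of Scd1, but 229% of Elovl6 and 183% of Fads3, the highest Fads3 of the 31 dams. Without it Fads1 and Fads2 had r = 0.89, Scd1 and Fads2 r = 0.85, and Elovl5 and Elovl7 r = 0.22 against 0.70 with it. The joint variation of Fads1, Fads2 and Elovl5 was therefore also seen among the other 30 dams, and that of Elovl5 with Elovl7 was much smaller there.

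**Figure D4:**
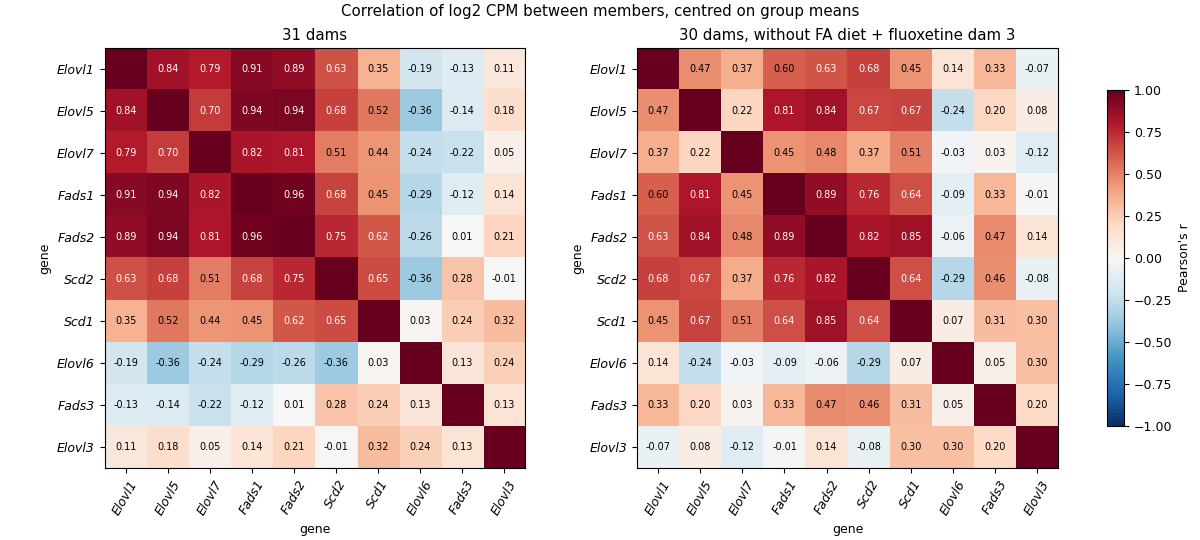
Pearson's r between the 10 genes for log2 CPM centred on group means, over 31 dams (left) and over 30 dams without FA + fluoxetine dam 3 (right); red is positive and blue negative. Fads1 and Fads2 reach 0.96 and 0.89, and the values of Elovl6 are small or negative in both.

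Markers of other cell types were set beside these values. The summed white adipocyte markers (9 of 9 detected, among them adiponectin and resistin) ranged from 441.2 to 1119.7 CPM in breeder + saline, 313.0 to 912.1 CPM in breeder + fluoxetine, 527.0 to 715.6 CPM in FA + saline and 358.9 to 1188.6 CPM in FA + fluoxetine dams. They differed by 0.01 on the log2 scale between the drugs (permutation p = 0.955, adjusted over 8 lists 0.955). Within the list 5 genes were higher and 4 lower with fluoxetine, with a median log2 difference of 0.08 and values from -0.50 to 0.42. Without FA + fluoxetine dam 3 the split was 3 higher and 6 lower, with a median of -0.15. Within groups, dams with a higher adipocyte sum had more Elovl6 (r = 0.56, permutation p = 0.0054, adjusted over 40 pairs 0.0719; rho = 0.55, permutation p = 0.0046, adjusted 0.0611) and less Scd2 (r = -0.59, permutation p = 0.0014, adjusted 0.0286; rho = -0.56, permutation p = 0.0024, adjusted 0.0484). Without the 2 dams farthest from the median of the marker sum, r was 0.45 (adjusted permutation p = 0.292) and -0.52 (0.224), so that both relations lost the threshold. FA + fluoxetine dam 3 had the highest adipocyte sum, and without it alone r was 0.51 for Elovl6 (adjusted permutation p = 0.131, for rho 0.123) and -0.52 for Scd2 (0.0975, for rho 0.123). The part of the adipocyte markers in the fluoxetine difference of Elovl6 was not tested.

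Between the drugs, 2 of the 8 marker lists passed 10% by permutation. The acute phase sum (10 of 10 markers detected) was 0.73 higher with fluoxetine (permutation p = 0.0066, adjusted 0.0350) and the ductal and basal epithelium sum (7 of 7) 0.17 lower (log2 difference -0.17, permutation p = 0.0087, adjusted 0.0350). The acute phase list holds Saa1, Saa2 and Saa3, which the study had named as affected by fluoxetine in these dams. Its p is therefore no independent support. Within the ductal and basal list 3 genes were higher and 4 lower, with a median of -0.05. Its most abundant genes, the smooth muscle genes Acta2 and Myh11, were at -0.38 and -0.32 (edgeR adjusted p = 0.360 and 0.430), while Krt18, a luminal keratin, was at 0.24 (edgeR adjusted p = 0.479). Elovl6 had r = 0.11 and rho = 0.17 with the acute phase sum (permutation p = 0.639 and 0.396, adjusted 0.730 and 0.678). Secretory epithelium markers differed by -0.34 (permutation p = 0.151), or -0.12 without FA + fluoxetine dam 3. Within that list 0 genes were higher and 10 lower, with a median of -0.19 and none called, where 53.5% of all genes tested were higher. Without FA + fluoxetine dam 3, 1 was higher and 9 lower, with a median of -0.11. The brown adipocyte (0.02), skin and sebaceous gland (-0.18), leukocyte (0.06) and skeletal muscle (-2.39, permutation p = 0.0846, adjusted 0.226) sums did not pass either. The muscle sum ran from 0.23 CPM in an FA + fluoxetine dam to 5181.6 CPM in a breeder + fluoxetine dam. By edgeR 3 of its 5 genes were higher and 2 lower, with a median of 0.01 and values from -0.10 to 0.09. Fads3 was lower in dams with more secretory marker RNA (r = -0.51, permutation p = 2e-05, adjusted 8e-04, and rho = -0.66, permutation p = 1e-05, adjusted 4e-04). For that pair r was -0.58 (adjusted permutation p = 0.146) without the 2 dams farthest from the median of the secretory sum. Without FA + fluoxetine dam 3 alone the pair still passed 10% (r = -0.57, adjusted permutation p = 0.0588, and rho = -0.67, adjusted 0.0024). Scd1 had r = -0.04 with the secretory sum (adjusted permutation p = 0.909), and -0.46 without that dam (adjusted permutation p = 0.0975, for rho 0.251).

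**Figure D5:**
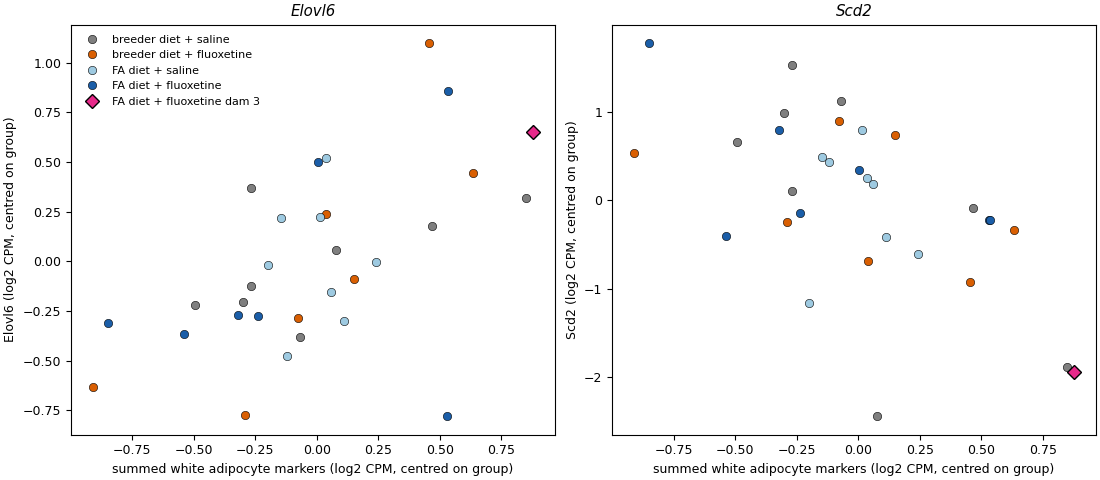
Elovl6 (left) and Scd2 (right) against the summed white adipocyte markers in each of the 31 dams, both as log2 CPM centred on group means; colours give the groups and the diamond FA + fluoxetine dam 3. Elovl6 rises with the markers (r = 0.56) and Scd2 falls (r = -0.59).

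The partners of these enzymes were read from lists of the pathway. Of 7 genes of the elongation cycle, 6 could be fitted, and with fluoxetine 1 was higher and 5 lower, with a median log2 difference of -0.19 and none called. Hacd2, a dehydratase of the cycle, had the smallest p, with a log2 difference of -0.38 (SE 0.18, edgeR adjusted p = 0.492). Tecr, the last reductase of the cycle, had the smallest p for FA (0.15, adjusted p = 0.935) and for the interaction (-0.32, adjusted p = 0.977). Among the cytochrome b5 genes that supply the desaturases with electrons, 5 of 6 were fitted, 2 higher and 3 lower, with a median of -0.01. The smallest p were those of Cyb5r1 for fluoxetine (0.10, adjusted p = 0.771) and Cyb5r3 for FA (0.18, adjusted p = 0.933) and the interaction (-0.45, adjusted p = 0.977).

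All 13 genes that supply the acyl substrates were fitted, with 6 higher and 7 lower with fluoxetine, a median of -0.05 and none called. The split turned without FA + fluoxetine dam 3, to 7 higher and 6 lower, with a median of 0.01. Olah, the thioesterase that ends medium chains in the gland, had the smallest p (log2 difference -0.24, SE 0.22, edgeR adjusted p = 0.747), Acsl5, an acyl-CoA synthetase, for FA (0.17, adjusted p = 0.943), and Fasn, the fatty acid synthase, for the interaction (-0.84, SE 0.44, adjusted p = 0.977). Of 13 regulators of lipid genes, 5 were higher and 8 lower, with a median of -0.02, and without FA + fluoxetine dam 3 the split turned to 8 higher and 5 lower, with a median of 0.01. Mlxipl, which encodes the carbohydrate-responsive factor ChREBP, had the smallest p for fluoxetine, at 6.8 ± 3.5 CPM against 4.7 ± 2.0 CPM (log2 difference 0.53, SE 0.22, adjusted p = 0.433), and for FA (-0.35, adjusted p = 0.933). Nr1h3, the liver X receptor alpha, had the smallest p for the interaction (1.32, SE 0.54, adjusted p = 0.977), and 0.49 without FA + fluoxetine dam 3.

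Of 6 further elongases and desaturases only Scd3 and Fads6 were fitted, both lower with fluoxetine, with a median of -0.29. Fads6 had the smallest p in all 3 comparisons, with log2 differences of -0.24 for fluoxetine (adjusted p = 0.728), -0.23 for FA (adjusted p = 0.95) and 1.03 for the interaction (SE 0.42, adjusted p = 0.977), by edgeR.

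The 10 tested genes whose log2 CPM, centred on group means, was most like that of Elovl6 over the 31 dams were Ppef2 (r = 0.72), Ifi27 (0.72), Aspg (0.71), Slc36a2 (0.71), Kif3a (0.67), Retn (0.67), Uspl1 (0.67), Pxdn (0.67), Aldh3b1 (0.67) and Pafah2 (0.66). These are descriptions over libraries that share depth and tissue makeup. Without FA + fluoxetine dam 3 the leading genes were Sec61g (0.81), Tmed5 (0.77), Smdt1 (0.72) and Sec61b (0.72), and Ppef2, Aspg and Ifi27 stayed among the first 10. Of the white adipocyte markers, Retn (resistin) was sixth, Fabp4 had r = 0.59, Adipoq 0.54 and Cidec 0.52, while Lep, which encodes leptin, had r = -0.09.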

How the data were processed

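Poly(A) RNA-seq libraries of 31 mammary glands were analysed. The deposited files hold raw gene counts per library. By the study's methods, read quality was checked with FastQC 0.11.7 and reads were trimmed with Trim Galore 0.4.4. Hisat2 was the aligner, GRCm39 the genome, and htseq-count gave the per-gene totals. Annotation release and strand setting are not given in the sources used here, so that overlapping opposite-strand genes cannot be told apart from members. Of 55379 genes, 667 had no entry in GENCODE vM39. The labels give 7 dams to breeder + fluoxetine, while the study's methods place the smaller group on the FA diet; the labels were followed.

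Counts were filtered by filterByExpr (41017 genes removed), TMM-normalized and tested with edgeR 4.0.16 in R 4.3.3 (robust quasi-likelihood test, 4 group means, common dispersion 0.169), with Benjamini-Hochberg adjustment over 14362 genes at 10%. The study used a likelihood ratio test, which was an alternative beside DESeq2 1.42.0. The step was tested on simulated data. Correlations used a prior count of 2 and 100000 permutations within groups. Marker sums were compared between drugs by 100000 permutations within diets, with a pseudocount of 0.1 CPM. No 2 libraries of a group agreed within sampling noise (lowest chi-square per degree of freedom 14.9). Whether equal numbers in the sample titles pair dams is not known. The 28 same-numbered pairs had a mean correlation of 0.07 (-0.22 to 0.43), and 12 exceeded 0.1. Pairs with different numbers had a mean of -0.005. These values cannot exclude a pairing or a shared batch, and the main fit has no block.

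All 10 members are named, with the gene of smallest p per pathway list and comparison and the 10 genes most like Elovl6. Members and lists were chosen with earlier results of these data known. P-values measure the spread between dams, each sampled once. Counting error is smallest for Scd1 (19443 to 133510 counts per library) and largest for Elovl3 (0 to 21).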

Additional observations from a re-analysis of the deposited data

Results flagged for a closer look

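Each gene was examined for a dam far from its group, by Dixon's ratio of the gap to the range on log2 CPM in 40 groups, of which chance flags about 1 in 20. FA + fluoxetine dam 3 was far below its group for Elovl1 (ratio 0.801, 14.8 CPM against a group median of 93.9 CPM), Elovl5 (0.770, 30.9 against 274.2 CPM), Fads1 (0.835, 74.1 against 505.4 CPM) and Fads2 (0.727, 32.2 against 254.8 CPM). Breeder + saline dam 10 was far below its group for Fads2 (0.652, 134.0 against 306.3 CPM), and FA + saline dam 10 for Fads3 (0.568, 3.36 against 9.08 CPM). For Elovl6 no dam stood apart by this measure.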

How the results depend on the processing

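For fluoxetine 3 genes were called, Elovl6 among them, which follows from how that gene was chosen. The count was 45 with the likelihood ratio test, 70 with DESeq2, 1 with no filter on low counts, and 0 to 19 when each dam was left out (0 without breeder + fluoxetine dam 8, 1 without FA + saline dam 2, 19 without breeder + saline dam 4, 16 without breeder + fluoxetine dam 7, 11 without FA + fluoxetine dam 2, 7 without FA + fluoxetine dam 10, and 5 without breeder + saline dam 3 or FA + saline dam 3). The number of members called was 1, and 0 to 1 when each dam was left out (0 without breeder + fluoxetine dam 8). For FA and the interaction 0 genes were called under every alternative run, and 729 and 552 genes had an unadjusted p under 0.05. The log2 difference of Elovl6 lay between 0.69 and 0.95 over all alternatives.

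With the number in the sample title as a block, 0 genes and 0 members were called for fluoxetine, and Elovl6 was 0.69 higher. The block turned the sign of Scd2 (0.0030) for fluoxetine, of Scd2 (0.056), Fads1 (0.12) and Fads3 (0.040) for FA, and of Elovl6 (0.10) for the interaction. Whether dams with the same number share a batch or pairing is not known, so this fit is given beside the main one and neither is preferred.

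Leaving out each dam in turn turned the sign of some differences near 0. For fluoxetine the ranges were Scd1 from -0.17 to 0.038, Scd2 from -0.24 to 0.083, Fads3 from -0.053 to 0.093. For FA they were Elovl6 from -0.019 to 0.18, Scd2 from -0.29 to 0.034, Fads1 from -0.051 to 0.060. For the interaction they were Elovl6 from -0.28 to 0.12, Scd1 from -0.35 to 0.072. None of these genes was called, Elovl6 for fluoxetine apart.

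The number of correlated pairs of members was 19, and 18 to 22 under the alternatives. Of the 40 pairs with marker sums 3 passed, 19 with no centring on group means and 0 without the 2 dams farthest from the median of the marker sum. Signs turned for Elovl3 with Scd2 (0.017), Elovl6 with Scd1 (-0.010) and Fads2 with Fads3 (-0.030) with no centring and for Elovl3 with Scd2 (0.065) with a prior count of 0.5. Without FA + fluoxetine dam 3 they turned for Elovl1 with Elovl3 (-0.066), Elovl1 with Elovl6 (0.14), Elovl1 with Fads3 (0.33), Elovl3 with Elovl7 (-0.12), Elovl3 with Fads1 (-0.015), Elovl5 with Fads3 (0.20), Elovl7 with Fads3 (0.033) and Fads1 with Fads3 (0.33), for the secretory sum with Elovl1 (-0.13), Elovl5 (-0.30), Elovl6 (0.064), Scd2 (-0.32), Fads1 (-0.30) and Fads2 (-0.41), for the leukocyte sum with Elovl1 (0.12), Elovl3 (0.051), Elovl5 (0.15), Elovl6 (-0.052), Scd1 (0.0023), Scd2 (0.13), Fads1 (0.15) and Fads2 (0.17) and for the acute phase sum with Fads1 (0.021). Without the 2 farthest dams they turned for Elovl1 with Elovl6 (0.25), Elovl1 with Fads3 (0.34), Elovl3 with Scd2 (0.046), Elovl5 with Fads3 (0.061) and Fads1 with Fads3 (0.19), for the secretory sum with Elovl5 (-0.14), Elovl6 (0.051), Scd2 (-0.29), Fads1 (-0.030) and Fads2 (-0.31), for the leukocyte sum with Elovl1 (0.36), Elovl3 (0.13), Elovl5 (0.29), Scd1 (0.10), Scd2 (0.18), Fads1 (0.26) and Fads2 (0.25), for the acute phase sum with Scd1 (-0.0065) and for the white adipocyte sum with Fads3 (-0.080). Chosen after seeing the data, marker sums between drugs were -0.053 for white adipocyte and -0.059 for leukocyte markers without FA + fluoxetine dam 3. The cause was not tested. Per longest transcript, Fads1 was at 139.6 and Elovl5 at 99.8 RPKM, and Scd2 came before Elovl1. Depth limits Elovl3 most.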
